A study of Mus musculus with 375 samples.

Results

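The cells described here are single cells from a sort for Lgr5, the surface receptor of stem cells at the base of intestinal crypts, that carried transcripts of Paneth cells. Members were chosen by their measured TPM: a cell was a member when at least 3 of 11 genes stood at 10 TPM or more (TPM is a transcript level already scaled to gene length and to the total of the cell). The 11 genes were Lyz1, Defa17, Defa21, Defa22, Defa23, Defa24, Ang4, Mmp7, Itln1, Pnliprp2 and Nupr1. Of 375 cells, 367 had at least 2000 genes above 0 TPM, and 57 of these 367 were members. The 8 cells left out for too few genes held none with 3 of the 11 genes. The other 310 passing cells are the comparison group and are called the other cells.

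By its title, the series is about suppression of epithelial MHC class II by diet. Cells came from the small intestine of mice on control food or on a high-fat one (HFD), were sorted by flow cytometry as Lgr5-positive, and were sequenced 1 cell at a time by Smart-seq2, a plate method that copies full-length mRNA. The titles give 2 sets per diet, with 93 and 91 passing cells in control 1 and control 2 and 91 and 92 in HFD 1 and HFD 2. The sources used here do not give the strain, the reporter used for the sort, the age and sex of the mice, the time on each diet or the number of mice. No label ties a set to its own mouse, so no p-value below measures a spread between mice. Each rests on the spread between these 4 sets, which may be technical, and the gene tests share that spread across genes. The read depth of the cells is unknown, since TPM does not hold it. Members had medians of 6691, 5931, 6857 and 6334 genes above 0 TPM in control 1, control 2, HFD 1 and HFD 2, against 6905, 6197, 6864 and 6349 in the other cells of the same sets. The ribosomal RNA precursor Rn45s took medians of 38.3%, 27.1%, 26.3% and 18.5% of TPM in members, against 38.8%, 24.2%, 27.4% and 18.8% in the other cells.

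Paneth cells sit between the Lgr5 stem cells at the base of small intestinal crypts. They store lysozyme (Lyz1), alpha-defensins (the Defa genes), angiogenin 4 (Ang4) and other antimicrobial proteins in granules, and the protease matrilysin (Mmp7) cuts pro-defensins to their active form in mice. They also supply stem cells with Wnt3, EGF and the Notch ligands Dll1 and Dll4. Paneth and goblet cells both descend from crypt progenitors in which the transcription factor Atoh1 is active, and Notch signalling represses Atoh1 in cells that stay stem cells or become absorptive.

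The 5 defensin genes of the rule are close copies on chromosome 8 of GRCm38 (mm10), from Defa21 at chr8:21025545-21026516 to Defa24 at chr8:21734494-21735471, all on the plus strand, so reads can be shared among them and the rule can count 1 signal more than once. Each has a coding sequence of 279 bases. Over 10 pairs the identity of the aligned coding sequences ranged from 80.6% to 99.3%, and it was 99.3% between Defa21 and Defa22 and 97.8% between Defa17 and Defa23. The last 105 coding bases are shown because they carry most of the mature peptide, from the GENCODE M21 transcripts, 5′ to 3′. Capitals mark bases that differ, position by position, from Defa24.
Defa24: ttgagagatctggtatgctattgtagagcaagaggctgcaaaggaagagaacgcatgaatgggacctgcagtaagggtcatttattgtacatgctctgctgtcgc
Defa17: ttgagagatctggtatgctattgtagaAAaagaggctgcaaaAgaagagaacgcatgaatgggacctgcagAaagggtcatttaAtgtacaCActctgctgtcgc
Defa23: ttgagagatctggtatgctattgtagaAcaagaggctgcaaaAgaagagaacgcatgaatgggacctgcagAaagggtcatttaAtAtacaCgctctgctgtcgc
Defa22: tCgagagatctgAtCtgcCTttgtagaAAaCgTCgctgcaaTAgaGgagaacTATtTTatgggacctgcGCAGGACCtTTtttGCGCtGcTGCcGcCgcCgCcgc
Defa21: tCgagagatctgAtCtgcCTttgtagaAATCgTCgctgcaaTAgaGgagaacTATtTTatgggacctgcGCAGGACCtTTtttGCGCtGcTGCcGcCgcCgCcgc
Defa17 and Defa23 differed from Defa24 at 7 and 6 of these bases, and Defa22 and Defa21 at 40 and 41. The copies therefore fall into 2 sequence types, and the level of any single copy is uncertain. With the 5 copies counted as 1 gene, 40 cells met the rule in place of 57 (6, 2, 17 and 15 in control 1, control 2, HFD 1 and HFD 2). Lyz1, at chr10:117287797-117292868 on the minus strand, lies beside Lyz2, which matches it at 422 of 444 coding bases.

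Members were more frequent in both HFD sets than in both control sets. They made up 7 of 93 cells in control 1 (7.53%, 95% Clopper-Pearson interval 3.08 to 14.9%) and 5 of 91 in control 2 (5.49%, 1.81 to 12.4%). In HFD 1 they were 25 of 91 (27.5%, 18.6 to 37.8%) and in HFD 2 20 of 92 (21.7%, 13.8 to 31.6%). The intervals cover counting error only. The mean share was 18.1 percentage points higher on HFD, against a pooled SD of 3.04 points between sets of 1 diet. The sets of the 2 diets did not overlap, and the exact two-sided permutation p was 0.333, the smallest that 2 sets against 2 can give. The difference was 9.30 points when the threshold was 100 TPM, 12.6 and 9.33 points when 4 or 5 genes were required, and 13.2 points with the defensin copies counted as 1 gene. Whether the mice, the sort or the diet set this difference cannot be told apart with sets whose source is not labelled.

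Most members held few of the 11 genes at low levels. At the threshold of the rule, 22 cells had exactly 3 genes, with a summed level of the 11 genes between 67.9 and 4112 TPM (median 196), and 21 cells just outside had 2 genes, with 50.3 to 496 TPM (median 161). Members ran from 3 to 10 genes, and 5 of them had 8 or more (2 in HFD 1 and 3 in HFD 2). Of the other cells, 187 had none of the genes at 10 TPM or more and 102 had 1. The summed level was under 1000 TPM in 37 members, between 1000 and 10000 TPM in 18, and at least 10000 TPM in 2. Its median in members was 530, 385, 572 and 1005 TPM in control 1, control 2, HFD 1 and HFD 2, lowest in control 2 and highest in HFD 2. Members held 69.0%, 45.3%, 99.3% and 90.6% of all TPM of the 11 genes in their sets.

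**Figure D1:**
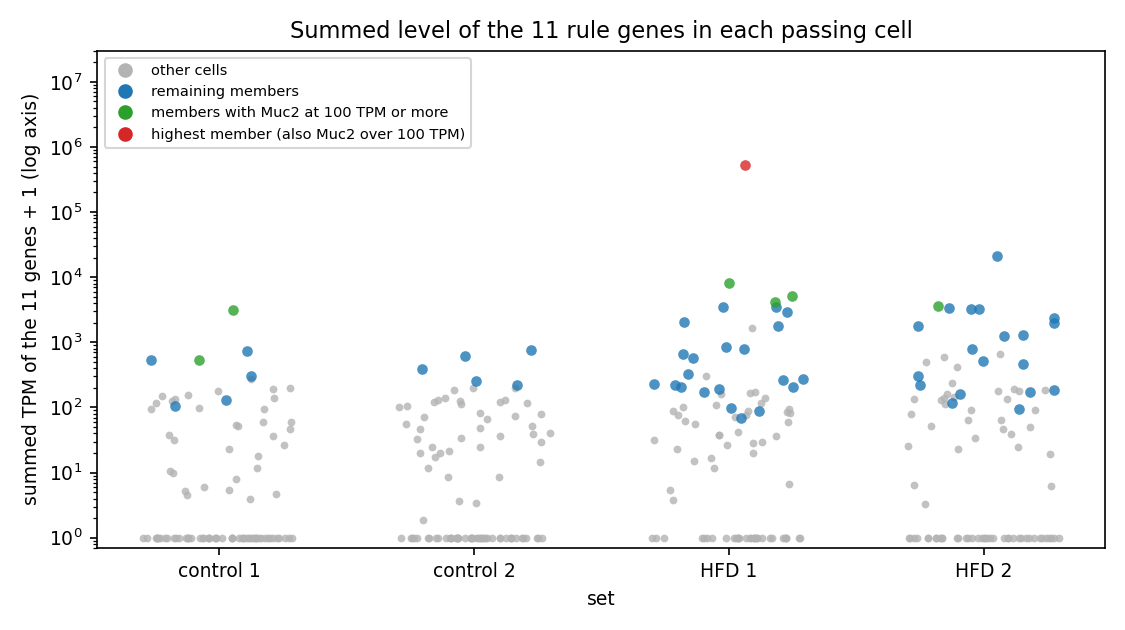
Summed TPM of the 11 rule genes plus 1 (vertical log axis) in every passing cell, by set (horizontal axis); each point is 1 cell, grey for the 310 other cells, blue for the 50 remaining members, green for 6 members with Muc2 at 100 TPM or more and red for the highest member. Most members lie between 67.9 and 10000 TPM, next to the other cells, and 1 cell of HFD 1 stands at 519671 TPM.

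The values that chose the members are given here as a description, without a test. Lyz1 and Defa24 were the most frequent, each at 10 TPM or more in 43 of 57 members, followed by Defa23 in 36, Itln1 in 27, Defa17 and Defa22 in 25 each, Defa21 in 21, Pnliprp2 in 20, Ang4 in 16, Mmp7 in 10 and Nupr1 in 4. A defensin was present in 54 members, Lyz1 together with a defensin in 40, and both with the lectin Itln1 in 20. Defensins without Lyz1 were found in 14 members, Lyz1 without a defensin in 3, and 3 members held defensins and no other gene of the rule. Lyz1 reached 10 TPM in 7 of 7, 2 of 5, 20 of 25 and 14 of 20 members of control 1, control 2, HFD 1 and HFD 2. The same genes reached 10 TPM in some of the other cells, with Defa24 in 36, Pnliprp2 in 35 and Lyz1 in 23 of 310. Ang4 was listed at 0 in all 310 other cells. Pnliprp2, a pancreatic lipase relative, was at 10 TPM or more in 35.1% of members and 11.3% of the other cells.

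One cell of HFD 1 differed from all other members in scale. The 11 genes made up 52.0% of its TPM, and with all other alpha-defensin names 88.3%. It held 208740 TPM of Defa24, 132104 of Defa17, 117534 of Defa23, 30624 of Lyz1, 9377 of Itln1, 986 of Ang4 and 328 of Mmp7. In all, 10 of the 11 genes passed 10 TPM, and Nupr1 stood at 5.36 TPM. Other Paneth genes were present too, with Clps (colipase) at 835 TPM, Mptx2 (a mucosal pentraxin) at 33.0 and Habp2 at 21.5. Stem cell transcripts were low in TPM, with 3.96 TPM of Lgr5, 3.48 of Ascl2 and 18.5 of Smoc2, and 470 TPM of Olfm4. The compressed scale described below lowers these values too, and their level relative to its other transcripts was not tested. The stem cell ligands Wnt3 and Egf stood at 6.70 and 2.48 TPM. Its values sit on a compressed scale, because TPM has a fixed total: the housekeeping gene Eef1a1 was at 851 TPM, against a mean of 11271 in the other cells, and Rn45s took 3.56%. With 9524 genes it was among the cells with most genes. This cell supplied 92.8% of all TPM of the 11 genes in HFD 1, where the mean over all passing cells was 6155 TPM with it and 450 without it. The next highest member, in HFD 2, had 20846 TPM and supplied 41.1% of the total of its set.

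The proportions of Paneth transcripts were set beside those of this cell as a description. For 3 of 4 ratios the highest cell lay within the range of the other members, and for Mmp7 to Lyz1 it lay below it. Defa24 was 6.82 times Lyz1 in the highest cell, and in 30 other members with both genes at 10 TPM or more the ratio ran from 0.101 to 30.3 (median 1.62). Itln1 was 0.306 times Lyz1 in it, and 0.115 to 1.81 times (median 0.534) in 21 other members. Ang4 was 0.032 times Lyz1 in it, against a median of 0.223 in 13 other members, whose range of 0.028 to 1.29 included it. Mmp7 was 0.011 times Lyz1 in it, below the range of 0.026 to 47.7 in 7 other members (median 4.77), of which 4 were cells with high Muc2 described next. Whether RNA of the highest cell reached other libraries was not tested.

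The highest cell and 6 further members held the goblet cell mucin Muc2 at 100 TPM or more, and no other passing cell did. This threshold was chosen after the values were seen, so the groups it makes are described without a test. The 6 besides the highest cell were 2 of control 1, 3 of HFD 1 and 1 of HFD 2. The 2 of control 1 have consecutive numbers in their titles, 35 and 36, and share a profile in a near fixed ratio. Of 11 genes at 100 TPM or more in cell 36 that at most 3% of passing cells held, 10 were present in cell 35, at 0.145 to 0.207 times their level (median 0.162). For 13 secretory genes named here, such as Muc2 (395 and 2657 TPM), Mmp7 (307 and 2014) and Atoh1 (64.6 and 363), the ratio of cell 35 to cell 36 ran from 0.135 to 0.207. In the cell of HFD 2 with high Muc2, the same ratio ran from 0.014 to 1.80 over the 10 of these genes it held. Cell 35 also held stem cell transcripts, with 8472 TPM of Olfm4, 247 of Lgr5 and 25.6 of Ascl2, and had the most genes of any passing cell (9822). Whether part of the RNA of cell 35 came from cell 36 was not tested. Several results that rest on the pair are given with and without cell 35, and all other values include it. Without it control 1 had 6 members of 92 cells (6.52%), and the share difference between the diets was 18.6 points. All 6 held Mmp7, at 307 to 3493 TPM, and this was the Paneth gene they shared: Lyz1 was present in 4 and Defa24 in 3. In all 6 the goblet genes were high, with Muc2 at 395 to 2657 TPM, the trefoil peptide Tff3 at 1547 to 11874, Spink4 at 1215 to 8056, Fcgbp at 441 to 6601 and the disulfide isomerase Agr2 at 1076 to 13991. The secretory fate factor Atoh1 stood at 64.6 to 1133 TPM and Spdef, which acts below it, at 3.11 to 660. The Notch ligands Dll1 and Dll4 were present in all 6, at 28.5 to 515 and 21.6 to 205 TPM. Wnt3 was present in all 6 (6.27 to 322 TPM), and Egf was listed at 0 in each. The receptor Kit, which is known from Paneth and goblet precursors, stood at 33.6 to 457 TPM. Stem cell transcripts were uneven in these cells. Olfm4 had a median of 119 TPM (0 to 8472), against 8952 in the other cells, and Ascl2 was above 0 in 1 of 6. The highest Olfm4 and the only Ascl2 were those of cell 35. Lgr5 had a median of 73.2 TPM (0.80 to 247), against 98.4 in the other cells. Smoc2 and Slc12a2 were present in all 6, at medians of 194 and 80.6 TPM against 338 and 116. Axin2 had medians of 8.7 and 46.1 TPM. The medians of the other cells pool the sets and are not matched to the sets of the 6. Fabp1, the fatty acid binding protein of the absorptive lineage, was listed at 0 in all 6, as was the goblet gene Zg16.

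Transcripts of Lgr5 stem cells were found in the 50 remaining members and in the other cells. Olfm4 had a median of 10644 TPM in them and 8952 in the 310 other cells. Lgr5 had medians of 138 and 98.4 TPM, Smoc2 of 405 and 338, Ascl2 of 52.1 and 57.7 and the Wnt target Axin2 of 47.2 and 46.1. The ranges of all 5 genes overlapped. Medians and counts given here pool the sets, and the classes differ in their mix of sets. Control 1, control 2, HFD 1 and HFD 2 held 5, 5, 21 and 19 of the 50 cells. They held 86, 86, 66 and 72 of the 310 other cells. Among the other cells the Olfm4 median itself ran from 7015 TPM in control 1 to 12805 in HFD 2. The pooled medians are therefore no comparison within sets. The proliferation gene Mki67 was present at 1 TPM or more in 30 of 50 and in 189 of 310. Regulators of the secretory fate ran from rare to present in nearly every cell, in both classes. The factor Gfi1 was listed at 0 in all 50 and present in 1 of 310 other cells, Atoh1 was present in 1 of 50 and 11 of 310, and Spdef in 1 and 2. Xbp1 was present in 43 of 50 and 262 of 310, Sox9 in 50 and 308, and Dll1 in 14 and 91. Dll4 was present in 2 of 50 and 32 of 310, Wnt3 in 1 and 9, and Egf in 1 and 11. The Paneth pentraxins Mptx1 and Mptx2 were listed at 0 in all 50. Among the 310 other cells Mptx1 was also listed at 0 in all, and Mptx2 was present in 1. The single cell with Atoh1, in HFD 2, held 142 TPM of it with 725 TPM of Spdef, 184 of Dll4, 298 of Mmp7, 4045 of Tff3 and 902 of Olfm4, and had no Lgr5 or Muc2. Ang4 marked 13 of the 50 cells, with a highest value of 160 TPM.

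**Figure D2:**
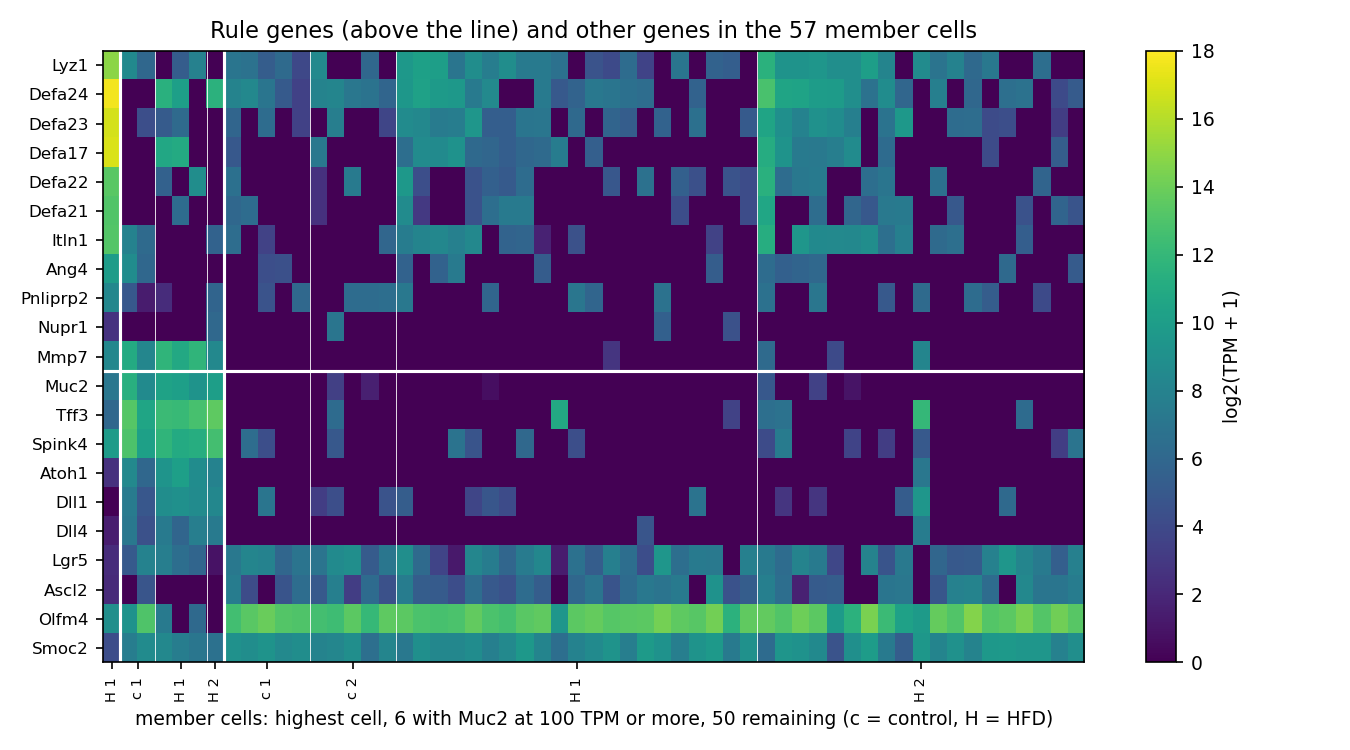
Log2(TPM + 1) (colour) of the 11 rule genes (above the white horizontal line) and 10 other genes (below it) in the 57 members; columns are cells, ordered as the highest cell, the 6 others with Muc2 at 100 TPM or more and the 50 remaining members, and within these by set (c, control; H, HFD) and summed level. The 6 cells with high Muc2 show Mmp7, Tff3, Spink4, Atoh1, Dll1 and Dll4 together, and the 50 remaining cells show Olfm4 and Smoc2 throughout.

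Markers of other cell types were compared between the classes. All 4 stromal markers (Col1a1, Col1a2, Col3a1, Dcn) and all 4 B cell markers were listed at 0 in every member, and so was the leukocyte gene Ptprc. Summed over the markers, T cell genes stood at 0.676 to 1.77 TPM across the member set means (0.628 to 1.53 in other cells) and myeloid genes at 0.362 to 3.86 (2.49 to 4.69), near 0 in both classes. Enteroendocrine markers were at 0 to 18.1 TPM and tuft markers at 0 to 2.78 in members, against 0.057 to 3.09 and 0.515 to 3.48 in the other cells. Chga, the enteroendocrine granule protein, was present in 2 of the 50 remaining members. Enterocyte markers stood at 124 to 801 TPM in members and 136 to 779 in the other cells. The goblet markers stood apart in 3 of 4 sets: 7 of 8 were found in members, and their sum was 5830, 28.5, 2041 and 2308 TPM in control 1, control 2, HFD 1 and HFD 2, against 56.5 to 104 in the other cells. Control 2, with the lowest sum, is the set without a member at 100 TPM of Muc2.

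Members were next compared with the other cells of the same set, gene by gene, to ask what else differs in a cell with Paneth transcripts. The value of a class in a set was the mean over its cells of log2(TPM + 1), and limma tested the difference over the 4 sets with the set as a block; a fold on this scale understates the change of low genes. Of 11652 genes, 6 passed a Benjamini-Hochberg adjusted p of 0.05 (0.0515%). All 6 were genes of the rule or near copies of them (Lyz1, Defa23, Defa24 and 3 further defensin genes), which the choice of members fixes. Of the 11617 other genes none passed in either direction. At an unadjusted p under 0.05, members were higher for 183 of these genes (1.58%) and lower for 369 (3.18%). Members were higher in all 4 sets for 522 genes (4.49%) and lower in all 4 for 1030 (8.87%). The median difference over all genes was −0.04.

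None of the goblet genes passed the adjusted threshold. Outside the rule, Tff3 had the smallest p, followed by Marveld2 (−1.57, SE 0.31, limma adjusted p = 0.194), a tight junction protein lower in members, and by Muc2. Of the 12 genes of smallest p outside the rule, 3 were higher and 9 lower in members. Tff3 averaged 3.41, 1.25, 2.30 and 2.26 on the log2 scale in members of control 1, control 2, HFD 1 and HFD 2, against 0.75, 0.41, 0.68 and 0.26 in the other cells. Members lay above the other cells in each of the 4 sets, by a mean of 1.78 (SE 0.34, limma adjusted p = 0.176). In control 2 this rests on the member at 75.8 TPM of Tff3, since the other members of that set stood at 0. Muc2 averaged 2.86, 0.99, 1.5 and 0.97 in members and 0.11, 0.05, 0.09 and 0.10 in the other cells, a difference of 1.49 (SE 0.30, limma adjusted p = 0.223), again with the same sign in every set. Spink4 differed by 2.12 (SE 0.53, limma adjusted p = 0.624) and Fcgbp by 1.39 (SE 0.36, limma adjusted p = 0.698). Control 2 again rested on few members, with Muc2 at 9.43 and 1.99 TPM, Spink4 at 29.9 and the rest at 0. The summed goblet markers of that set were lower in members (28.5 TPM) than in the other cells (78.5 TPM). Of 17 goblet genes tested, 12 were higher at an unadjusted p under 0.05 and none lower, with a median difference of 0.79. Without cell 35 of control 1, Tff3 differed by 1.48 (limma adjusted p = 0.165) and Muc2 by 1.25 (limma adjusted p = 0.0733), and 12 of the 17 were again higher at that level, with a median of 0.62. Without the 7 cells with Muc2 at 100 TPM or more, the median was −0.03. Leaving out cells by their Muc2 takes out high goblet values by its construction, so values without these cells are given here and below as a description and are no test. Weighting each value by its number of cells, which gives the HFD sets more weight, called 10 genes outside the rule: Tff3, Muc2, Spink4 and Fcgbp higher, and Olfm4, Dmbt1, Marveld2, Pus7l, Ifitm3 and a predicted gene lower. These 10 are named because the alternative called them, after their values were seen.

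No factor or ligand of the secretory lineage passed the adjusted threshold. Of 16 secretory fate factors tested, 8 were higher at an unadjusted p under 0.05 and none lower, with a median of 0.48. Atoh1 differed by 0.85 (SE 0.28, limma adjusted p = 0.925), with 2.08, 0, 1.23 and 0.76 in members and 0.19, 0.20, 0.25 and 0.04 in the other cells; control 2 members had none. Spdef differed by 0.84, Creb3l1, a transcription factor of secretory cells, by 0.71 and Dll1 by 0.91, and of these 3 Dll1 was higher in all 4 sets. Without cell 35 of control 1 the count was again 8 of 16 and Atoh1 differed by 0.68 (limma adjusted p = 0.861). Without the 7 cells with high Muc2 the median of the 16 was 0.09. Among the ligands by which Paneth cells support stem cells, 5 of 14 listed genes passed the filter on low levels. Dll1 and Wnt3 (0.54, SE 0.20, limma adjusted p = 0.925) were higher at an unadjusted p under 0.05, while Dll4 (0.42) and Tgfa (0.19) were not. The remaining 1 of the 5 did not have a positive difference. The median of the 5 was 0.42, with 0.30 without cell 35 of control 1 and −0.02 without the cells with high Muc2. Egf did not pass the filter on low levels.

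Among Paneth genes that the rule did not use, none passed the adjusted threshold. Of 29 tested, 7 were higher and 1 lower at an unadjusted p under 0.05, with a median of 0.33 (0.25 without cell 35 of control 1, and 0.08 without the cells with high Muc2). Reg4, a secreted lectin, differed by 0.95 (SE 0.26, limma adjusted p = 0.757) and was listed at 0 in all 310 other cells. Among members, Reg4 was present in the highest cell, 4 of the 6 others with high Muc2 and 3 of the 50 remaining. Habp2, a serine protease, differed by 0.76 and Clps by 0.74, and Kit by 0.52. Habp2 was present in 5 of the same 6 members, 3 of the 50 and 6 of the 310 other cells. Clps averaged 0, 1.17, 0.39 and 1.46 in members and at most 0.07 in the other cells of any set, so control 1 members had none. In control 2 this rests on the member at 55.7 TPM of Clps, and in HFD 1 on the highest cell. All other members of these sets stood at 0. Mptx1 was found in members only of control 1 and HFD 1 (2.09 and 0.10), and its difference was 0.55 with cell 35 of control 1 and 0.38 without it. Sox9, a Wnt target needed for Paneth cells to form, differed by 0.08. The secretory stress factor Xbp1 differed by 0.49 (SE 0.43), little more than its error. The surface protein Cd24a, often used to sort Paneth cells, differed by −0.45 (SE 0.33), and the Wnt receptor Fzd5 by −0.42 (SE 0.38). Ephb3, the receptor that positions Paneth cells at the crypt base, differed by 0.20 (SE 0.36).

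**Figure D3:**
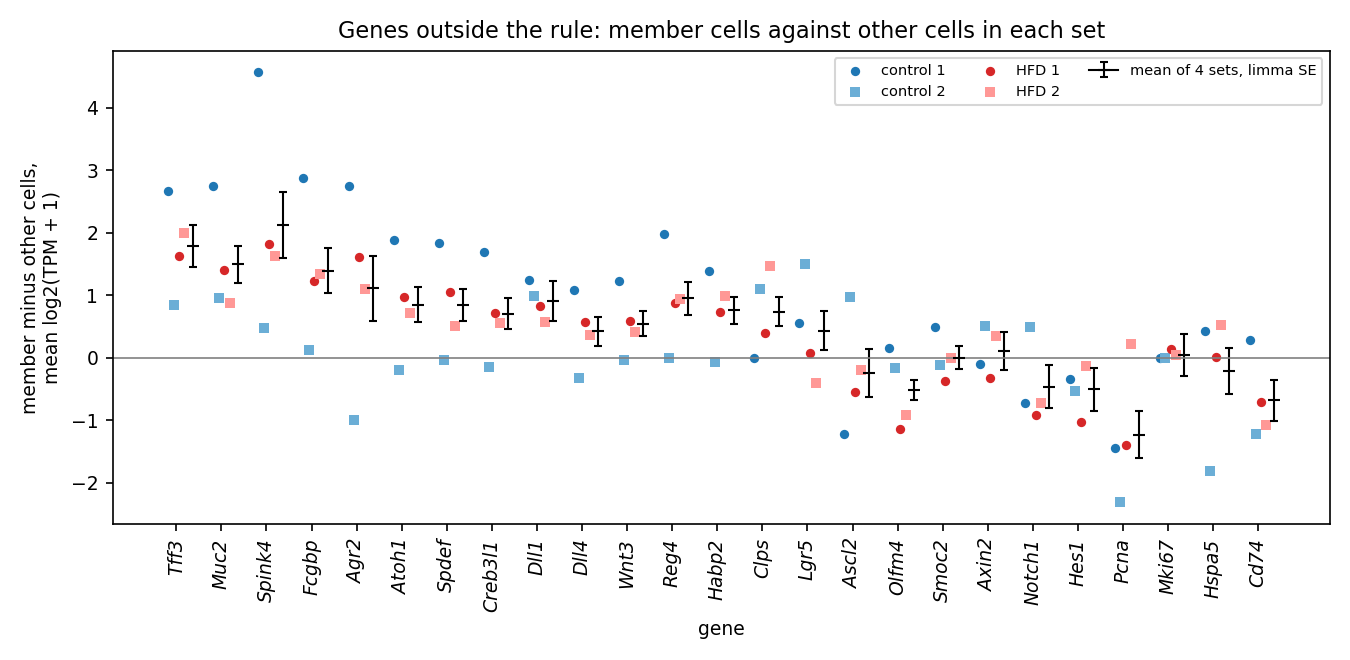
Member minus other cells, in mean log2(TPM + 1), for 25 genes outside the rule (horizontal axis); blue and red points are the 4 sets, and the black bar is their mean with the limma SE. Tff3, Muc2 and Spink4 lie above 0 in all 4 sets, in control 2 on few members. Control 2 lies near or below 0 for Atoh1, Spdef and Wnt3, and the stem cell genes scatter around 0.

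Of 30 stem cell genes tested, none was higher and 2 were lower in members at an unadjusted p under 0.05; 14 differences were positive and 16 were not, with a median of −0.01. In the HFD sets only, 24 of the 30 were not positive, 5 were lower at that level and the median was −0.22. Over all genes of that fit the median was −0.04, and 481 of the 11617 outside the rule were lower at that level. Without the cells with high Muc2, 20 of the 30 were positive and the median was 0.19, against −0.07 over all genes. Lgr5 averaged 7.03, 7.35, 6.01 and 5.81 in members and 6.48, 5.84, 5.94 and 6.21 in the other cells, with members above in 3 sets and below in HFD 2 (mean 0.43, SE 0.32). Ascl2 differed by −0.25 (SE 0.38) and Smoc2 by −0.0023 (SE 0.18). Olfm4, a secreted glycoprotein of crypt base cells, had the smallest p of the list: it averaged 12.6, 12.8, 11.9 and 12.3 in members and 12.5, 13.0, 13.1 and 13.2 in the other cells, a difference of −0.52 (SE 0.16, limma adjusted p = 0.918). Members were below the other cells in 3 sets and above in control 1. Without the cells with high Muc2 the Olfm4 difference was 0.093.

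Wnt, Notch and cell cycle genes gave few small p-values. Of 31 Wnt pathway genes, none was higher and 2 were lower (Axin1 and Ccnd1, by −0.57 and −1.0) at an unadjusted p under 0.05, with a median of −0.02, and Axin2 differed by 0.11 (SE 0.31). Of 22 Notch pathway genes 2 were higher and 1 lower. In all, 9 differences were positive and 13 were not, with a median of −0.12, against −0.04 over all genes. The Notch genes named next are all from the 13. The receptor Notch1 differed by −0.47 (SE 0.35), its target Hes1 by −0.51 (SE 0.35) and the feedback inhibitor Nrarp by −0.75 (SE 0.25). Hes1 lay below the other cells in all 4 sets, with 3.14, 3.47, 3.32 and 4.31 in members against 3.48, 4.0, 4.34 and 4.43. Of 42 S phase genes 1 was higher and 3 were lower, with a median of −0.27. Pcna, the replication clamp, averaged 5.06, 3.08, 6.04 and 7.18 in members and 6.50, 5.40, 7.43 and 6.96 in the other cells, a difference of −1.23 (SE 0.37, limma adjusted p = 0.910) that HFD 2 did not share. Of 52 G2/M genes none was higher and 1 was lower; 25 differences were positive and the median was −0.0045, and Mki67 differed by 0.042 (SE 0.34). Without cell 35 of control 1, 43 of the 52 were not positive (median −0.20, against −0.07 over all genes), and without the cells with high Muc2 48 were not (median −0.38). In the HFD sets only 40 of the 52 were positive, with a median of 0.14, against −0.04 over all genes.

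Secretory load and defence genes showed no called difference either. Of 34 genes of folding and stress in the endoplasmic reticulum 3 were higher and none lower at an unadjusted p under 0.05 (median 0.07). The chaperone Hspa5 differed by −0.22 (SE 0.36) and Agr2 by 1.11 (SE 0.52). Of 7 MHC class II genes, none was higher and 1, H2-DMb1, was lower (−1.09, SE 0.32, limma adjusted p = 0.910), with a median of −0.32. Among 6 Reg3 and other antimicrobial genes, Dmbt1, a secreted scavenger receptor protein of mucosa, averaged 5.17, 5.02, 5.67 and 4.14 in members and 6.29, 5.85, 7.22 and 6.50 in the other cells. It lay lower in members of all 4 sets (−1.47, SE 0.32, limma adjusted p = 0.344). The antibacterial lectins Reg3b and Reg3g differed by 0.0078 (SE 0.28) and 0.15 (SE 0.42). Fabp1 differed by 0.42 (SE 0.49).

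The diets were then compared within the members, with 7 and 5 control cells and 25 and 20 HFD cells behind the 4 values. No gene of 11652 passed the adjusted threshold (0% called), and the smallest limma adjusted p was 0.817. At an unadjusted p under 0.05, 489 of the 11617 genes outside the rule were higher on HFD (4.21%) and 201 lower (1.73%). Both HFD sets lay above both control sets for 2474 genes (21.3%) and below for 1633 (14.1%). The median over all genes was 0.105, and 0 after rescaling without Rn45s, and medians of lists stand beside it.

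MHC class II genes, the subject of the series, had negative diet differences within members that did not pass the adjusted threshold. Cd74, the invariant chain of MHC class II, averaged 8.27 and 6.17 in control members and 3.33 and 2.99 in HFD members, a difference of −4.06 (SE 0.80, limma adjusted p = 0.817). H2-Eb1, a class II beta chain, averaged 6.81 and 5.76 against 2.17 and 1.81 (−4.29, SE 0.60, limma adjusted p = 0.817). H2-Ab1 averaged 8.11 and 4.61 against 2.0 and 3.64, and H2-Aa 4.98 and 2.97 against 0.80 and 1.81. For all 4 genes both HFD values were below both control values. Of 7 class II genes tested, 5 were lower on HFD at an unadjusted p under 0.05 and none higher, with a median of −2.67. The other cells had a like pattern, with Cd74 averages of 7.98 and 7.39 on control food against 4.04 and 4.06 on HFD. The diet difference of members minus that of the other cells was −0.42 for Cd74 (SE 0.66, limma adjusted p = 0.997), so a difference between the classes was not detected.

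The fatty acid binding genes Fabp1 and Fabp2 had positive diet differences, which did not pass the adjusted threshold, while the enterocyte list as a whole was split. Fabp2 averaged 5.11 and 5.22 in control members and 7.44 and 7.63 in HFD members (2.37, SE 0.41, limma adjusted p = 0.817). Fabp1 averaged 0.98 and 5.38 against 6.64 and 6.95 (3.62, SE 1.44, limma adjusted p = 0.817), with most of the spread within a diet between the control sets. Of 22 enterocyte genes tested, 11 were positive, 2 were higher at an unadjusted p under 0.05 and none lower, and the median was −0.014. Calr, a chaperone of the endoplasmic reticulum, differed by 2.25 (SE 0.45), Hspa5 by 1.97 (SE 0.80) and Pcna by 2.54 (SE 0.83). Of 34 endoplasmic reticulum genes 4 were higher and none lower at an unadjusted p under 0.05 (median 0.62), of 42 S phase genes 4 and none (median 0.74), and of 52 G2/M genes 5 and none (median 0.72). Of 15 housekeeping genes, 12 were also positive, with a median of 0.37 and none higher or lower at that level. Lgr5 differed by −1.28 (SE 0.41), with both HFD values below both control values, and the stem cell list had 3 of 30 genes lower and none higher, with a median of −0.41. Of the 16 secretory fate factors 1 was higher, and of the 17 goblet genes none differed at that level, with medians of −0.09 and −0.11.

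**Figure D4:**
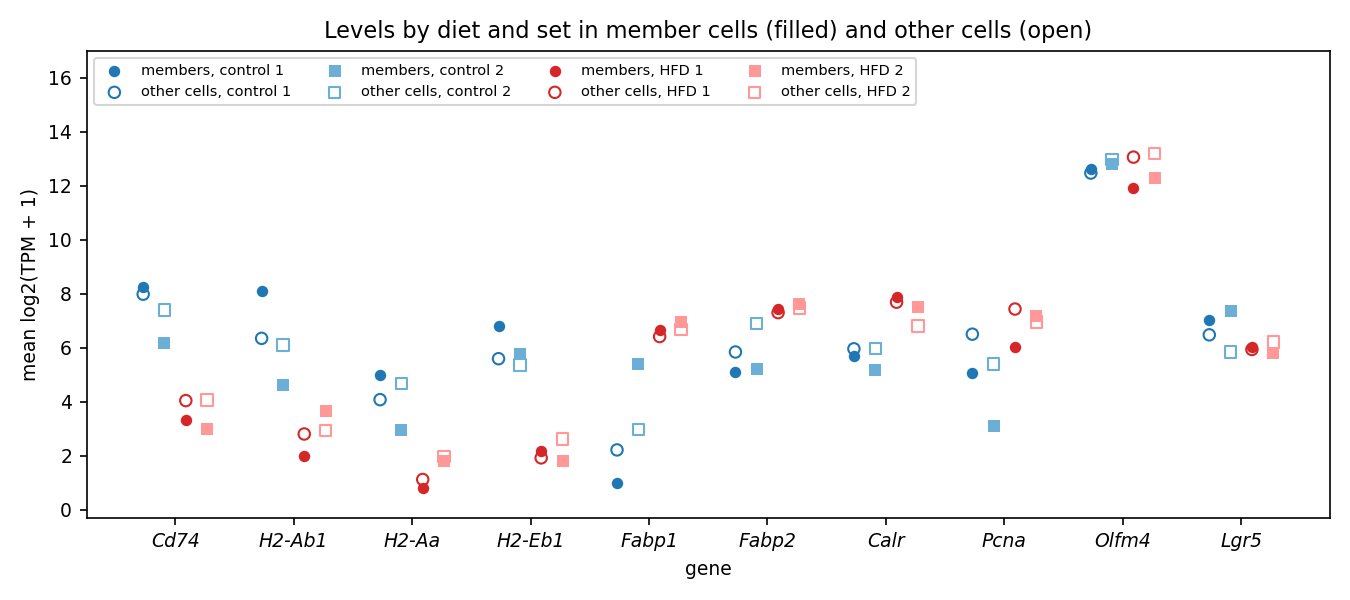
Mean log2(TPM + 1) (vertical axis) of 10 genes (horizontal axis) in members (filled) and other cells (open) of the 4 sets, control in blue and HFD in red; no error bars are drawn because each point is 1 set. Class II genes lie lower and Fabp2 and Calr higher in the HFD sets of both classes, and Olfm4 lies below the other cells in members of HFD 1 and HFD 2.

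Whether the gap between members and other cells depends on the diet was tested by the interaction of class and diet. No gene of 11652 passed (0% called), and 229 (1.97%) and 227 (1.95%) of the 11617 genes outside the rule were higher and lower at an unadjusted p under 0.05. Olfm4 had the smallest p outside the rule. Members exceeded the other cells by 0.15 in control 1 and fell short by −0.17, −1.14 and −0.91 in control 2, HFD 1 and HFD 2, an interaction of −1.02 (SE 0.13, limma adjusted p = 0.326). Both HFD sets lay below both control sets. The interaction of Olfm4 was −0.96 without the highest cell of HFD 1, −0.99 without cell 35 of control 1 and −0.40 without the 7 cells with high Muc2. Of the 30 stem cell genes 25 had an interaction that was not positive, with a median of −0.39, against 0.012 over all genes. At an unadjusted p under 0.05, 3 of the 30 were lower. The G2/M list went the other way, with 43 of 52 interactions positive and a median of 0.55. None of the 52 was higher or lower at that level. Whether either list rests on the cells with high Muc2 was not tested. In the HFD sets alone, where the fit has 1 residual degree of freedom, 30 genes outside the rule were called, 16 higher and 14 lower. Tff3, Muc2, Spink4, Fcgbp, Clps, Reg4, Habp2, Spdef and Atoh1 were among the higher. Olfm4 (−1.03, limma adjusted p = 2.26e-63) and Dmbt1 were among the lower. In this fit limma took the spread almost wholly from its trend over all genes. The size of such p-values therefore does not measure the spread of the 2 differences of a gene.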

How the data were processed

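Values are TPM, 1 per gene and cell, as deposited; per the submitters' processing notes the authors used Bowtie2 and RSEM with the build mm10, with tool versions and annotation not given in the sources used here. Of 23420 rows, 27 whose symbols had become dates were left out. Class means of log2(TPM + 1) per set (pseudocount 1) were tested with limma 3.58.1 in R 4.3.3 (mean-variance trend, two-sided, Benjamini-Hochberg over 11652 genes averaging 1 TPM or more over the sets). The steps of the member fit were tested on simulated data that gave all values of a gene the same spread. Real values averaged 5 to 86 cells, so that check does not cover unequal spread. The set was the replicate, 2 per diet. Genes of the rule and 24 near copies were fitted but not interpreted. Lists count genes that passed the filter. A gene is present in a cell at 1 TPM or more. Members, lists, tests and named genes were chosen with earlier results of these data known. Named genes were to be the 12 largest called rises and falls per comparison (none was called), 39 genes fixed by name, and up to 4 of smallest p per list. Alternatives covered scale, pseudocount, filters, scaling, member rule, weights, block and left-out sets. No doublet caller was run on these sorted wells. Coding sequences and coordinates are from GENCODE M21.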

Additional observations from a re-analysis of the deposited data

How the results depend on the processing

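Depth is unknown in TPM, and 2 sets per diet, with 7 and 5 control members, limit every comparison. The share difference was 9.30 points at 100 TPM, 12.6 and 9.33 points with at least 4 or 5 genes and 13.2 points with the defensin copies as 1 gene, and 15.2 to 21.0 points when 1 set was left out. Genes outside the rule called between members and other cells numbered 0 in the reported fit, 2 with members of at least 5 genes, 10 with weights by number of cells, 30 in the HFD sets only, and 0 to 1 when 1 set was left out (without control replicate 1 a predicted gene, without control replicate 2 Tff3). The diet comparison within members called 0 in every setting run. The interaction called 28 with members of at least 5 genes and 0 to 1243 when 1 set was left out: 1243 without control replicate 1, 343 without control replicate 2, 0 without HFD replicate 1 and 2 without HFD replicate 2; these fits have 1 residual degree of freedom. With 2 pairs, the data cannot show that replicate numbers pair the sets (correlation of deviations 0.075 in members and 0.245 in other cells). With the replicate number as a block, the share difference was 18.1 points, the diet comparison called 0 and the interaction called 2 (Rn45s and Olfm4, both lower). Members of at least 5 genes did not occur in control 2, so that rule leaves 3 sets.

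Values that had not passed the test changed sign in members against other cells as follows, and the cause was not tested beyond the construction of each setting. Leaving out cells with Muc2 at 100 TPM or more gave Wnt3 −0.019, Dll4 −0.30, Atoh1 −0.075, Kit −0.23, Ascl2 0.17, Olfm4 0.093, Smoc2 0.14, Agr2 −0.12, Mki67 −0.38, H2-Ab1 −0.053, Reg3g −0.0043 and Creb3l1 −0.029. Members of at least 5 genes gave Tgfa −0.16, Sox9 −0.074, Cd24a 0.087, Ephb3 −0.70, Lgr5 −0.077, Axin2 −0.56, Hspa5 0.20, Cd74 0.010, H2-Aa 0.48, Reg3b −0.39 and Fabp1 −0.69. Counting the 5 copies as 1 gene gave Tgfa −0.39, Ephb3 −0.21, Fzd5 0.36, Lgr5 −0.091, Axin2 −0.058, H2-Aa 0.23, H2-Ab1 −0.21 and Reg3b −0.40. Cells in the interquartile range of genes gave Kit −0.054, Fzd5 0.18, Ascl2 0.60, Smoc2 0.20, Agr2 −0.63 and Mki67 −0.37. The log2 of the mean TPM gave Ephb3 −0.21, Mki67 −0.14, H2-Ab1 −0.61, Reg3b −2.06, Reg3g −1.70 and Fabp1 −0.021. Members at 100 TPM gave Ephb3 −0.79, Axin2 −0.82 and Hspa5 0.28, for diet within members Fabp2 −0.16, and for the interaction Olfm4 0.24 and Cd74 1.94. HFD sets only gave Ephb3 −0.030, Lgr5 −0.16, Hspa5 0.27 and H2-Ab1 −0.047. Smoc2 was 0.045 rescaled without rule genes, defensins and Rn45s, 0.0063 rescaled without Rn45s, 0.091 without members of 8 or more genes and 0.039 without the highest cell of HFD 1. Mki67 was −0.081 without members of 8 or more genes and −0.28 against other cells with none of the 11 genes, where H2-Ab1 was −0.32. Without cell 35 of control 1 Mki67 was −0.12 and H2-Ab1 −0.014. Hspa5 was 0.055 with weights. Leaving out 1 set gave Xbp1 −0.011 to 0.96, Cd24a −0.77 to 0.071, Ascl2 −0.65 to 0.079, Smoc2 −0.17 to 0.12, Axin2 −0.024 to 0.25, Hspa5 −0.46 to 0.32, H2-Aa −0.73 to 0.14, H2-Ab1 −0.53 to 0.56, Reg3b −0.34 to 0.43, Reg3g −0.12 to 0.60 and Fabp1 −0.24 to 0.97, and for the interaction Cd74 −1.17 to 0.34. The rescaling without Rn45s and without the highest cell of HFD 1, the rule with 1 defensin gene and the settings without high Muc2 and without cell 35 of control 1 were added after the data were seen.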
